A study of Homo sapiens with 9 samples.

Results

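The IL1 and IL36 family cluster is a run of 9 cytokine genes on chromosome 2, taken here by name as IL1A, IL1B, IL37, IL36G, IL36A, IL36B, IL36RN, IL1F10 and IL1RN out of 20090 protein-coding genes in the annotation. The choice was by name with no cutoff on a measured value, but earlier results of these data were known when it was made. They lie in this order between chr2:113531502 (the IL1A end) and chr2:113891593 (the IL1RN end) on GRCh37, the same build as the hg19 of the files, and their gene bodies fall in 8 bins of 40 kb out of 69621 bins with values in every Hi-C library. In the 10 kb bins of capture Hi-C (cHi-C) the genes fall in 21 bins, of which 18 had a value in every library, out of 5628 such bins in 61 captured regions.

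Hi-C counts how often pairs of genomic positions are ligated together in fixed nuclei, and cHi-C enriches such a library with RNA baits for selected regions. All libraries came from IMR90, a line of normal human lung fibroblasts, infected with a vector labelled ER:HRAS(G12V), an oestrogen receptor fusion of HRAS with the activating G12V change that responds to tamoxifen. Growing cells received no tamoxifen (3 Hi-C and 2 cHi-C libraries), and cells in RAS-induced senescence (RIS) received 100 nM 4-hydroxytamoxifen (4OHT) for 6 days (2 Hi-C and 2 cHi-C libraries). Both groups therefore carry the oncogene fusion and only RIS cells were induced, and the effect of the drug itself cannot be told apart from that of RAS. The vector label of growing Hi-C replicate 3 also names an MSCV vector, which no other label does. The study calls its replicates biological, but no source used here says whether they were separate cultures, so p-values measure the spread between libraries, and the cHi-C libraries were made to match Hi-C libraries, so the assays may share material and are not independent. Contacts hold no expression values, so the labelled cell type could not be checked against markers, and a contact is an average over cells in which fewer cells with a contact cannot be told apart from a weaker contact.

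The Hi-C files held 154318992, 175410468 and 180775315 contacts for growing cells, against 109967509 and 150689993 for RIS cells, as recovered from the balanced values. The cHi-C files held 172081039 and 149692256 contacts in growing and 100111947 and 69368468 in RIS, so every RIS library was shallower than the growing libraries of its assay. The IL36G start site lies in a 10 kb bin, chr2:113730001-113740000, that holds 0 HindIII sites and had no value in any cHi-C library, so IL36G was measured there by its second bin alone. The captured region ended before the last IL1RN bins, and cHi-C gave IL1RN only up to chr2:113880000.

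The cluster arose by gene duplication, and its products act on a small set of receptors. IL1A and IL1B encode the agonists of the IL-1 receptor and are core parts of the senescence-associated secretory phenotype of fibroblasts, in which membrane-bound and secreted IL-1 drives IL6 and CXCL8. IL1RN encodes the antagonist of the same receptor. IL36A, IL36B and IL36G encode agonists of the IL-36 receptor, best known from keratinocytes and skin inflammation, IL36RN encodes its antagonist, IL1F10 encodes IL-38, thought to act as an antagonist too, and IL37 encodes an anti-inflammatory cytokine that acts through the IL-18 receptor. In mammalian chromosomes the protein CTCF, together with cohesin, holds loops between sites that face each other, and the edges of topologically associating domains (TADs) are often rich in such sites.

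Because the results turn on a border between IL37 and IL36G and on a strong contact that spans the IL1 genes, the sequence around them was searched on both strands for the CTCF core motif, and the matches from NT5DC4 to the border are shown. Each is given 5′ to 3′ on its own strand from GRCh37, with the motif core in capitals. A match is a description of letters, not evidence of binding.
NT5DC4, minus strand, chr2:113484468-113484487: cggCCAGCAGAGGGCGCtgg
CKAP2L, plus strand, chr2:113507415-113507434: ctgCCAGCAGGGGGCACgag
40 kb bin of IL37, outside the gene, minus strand, chr2:113642666-113642685: cagCCACTAGGTGGCAGgag
between IL37 and IL36G, minus strand, chr2:113699501-113699520: ggaCCAGTAGAGGGCGCcat
between IL37 and IL36G, minus strand, chr2:113716578-113716597: tccCCACTAGATGGCAGtag

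The plus-strand match inside CKAP2L, a gene for a mitotic spindle protein, lay 212.6 kb before the border and faces the 3 minus-strand matches that lay 77.3, 20.5 and 3.4 kb before it. A match of this kind occurred in 6.28% of the 5958 bins of 40 kb on chromosome 2 that have sequence. Among the bins of the 9 genes only that of IL37 held one, and after the border the next match came at chr2:114346218, beyond the last domain edge described below. HindIII sites, where the libraries were cut, numbered 8 (IL1B) to 15 (IL1A) per member bin against a chromosome 2 median of 12.

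The cluster was divided by a domain border at chr2:113720000, between IL37 and IL36G, in growing and in RIS cells alike. The border was found in every one of the 5 Hi-C libraries at the same 40 kb edge. The insulation score, the log2 of the mean contact across an edge relative to the chromosome 2 mean, was −0.89, −0.86 and −0.89 there in growing cells, against −0.80 and −0.99 in RIS cells. The groups overlapped, and the difference of −0.01 was smaller than the spread between the RIS libraries (exact permutation test over libraries, two-sided, p = 0.9, where 0.1 is the smallest p that 3 against 2 libraries allow). IL1A, IL1B and IL37 shared a domain of 240 kb from chr2:113480001 to the border in both conditions. The other 6 genes, IL36G to IL1RN, shared a domain that ran from the border to chr2:114200000 in growing cells (480 kb) and to chr2:114240000 in RIS cells (520 kb). Single libraries placed that far edge at 114200000, 114200000 and 114280000 in growing and at 114240000 in both RIS libraries, so the shift lay within the spread of the growing libraries. The insulation score at that edge was lower in RIS without overlap, at −1.34, −1.38 and −1.25 in growing against −1.44 and −1.56 in RIS at 114200000, and at −1.27, −1.35 and −1.31 against −1.64 and −1.56 at 114240000 (differences −0.17 and −0.29, each exact p = 0.1). Other edges of the window also differed without overlap and by like sizes, for example by 0.28 at 112760000 and by −0.22 at 114720000. A difference of this kind was thus not particular to this edge, and its share over the chromosome was not measured.

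**Figure D1:**
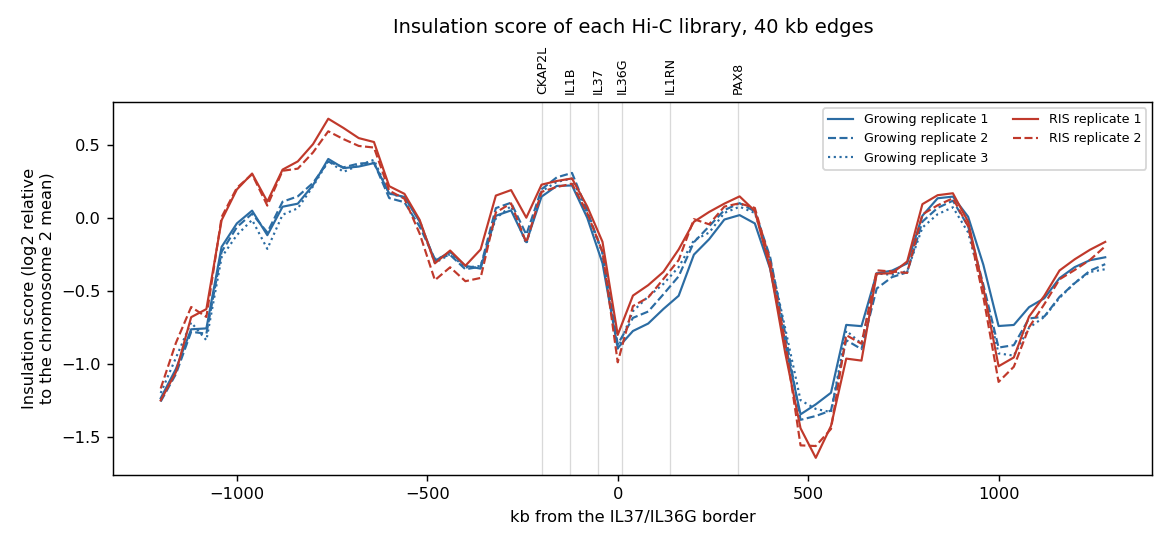
Insulation score (log2 relative to the chromosome 2 mean) of each Hi-C library along the cluster and its flanks, in kb from the IL37/IL36G border. All 5 libraries dip at 0 kb, to between −0.80 and −0.99, and the 3 growing and 2 RIS lines overlap there.

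Contacts between the 9 genes followed this border. Contact was expressed as the log2 of the observed over the expected balanced value (O/E), where the expected value is the mean at the same distance over chromosome 2 for Hi-C and over all captured regions for cHi-C. Of the 28 pairs of member bins in Hi-C, all 15 pairs across the border lay below expectation in both conditions (condition means −2.32 to −0.82 in growing and −2.61 to −0.97 in RIS). Of the 13 pairs on one side, 11 lay above expectation in growing and 12 in RIS, with condition means up to 1.23 and 1.11. IL36B, IL36RN and IL1F10 share a 40 kb bin, so Hi-C gives them 1 value. The 40 kb bin of IL1A also holds the CKAP2L start site, so every 40 kb value of IL1A is shared with that gene.

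**Figure D2:**
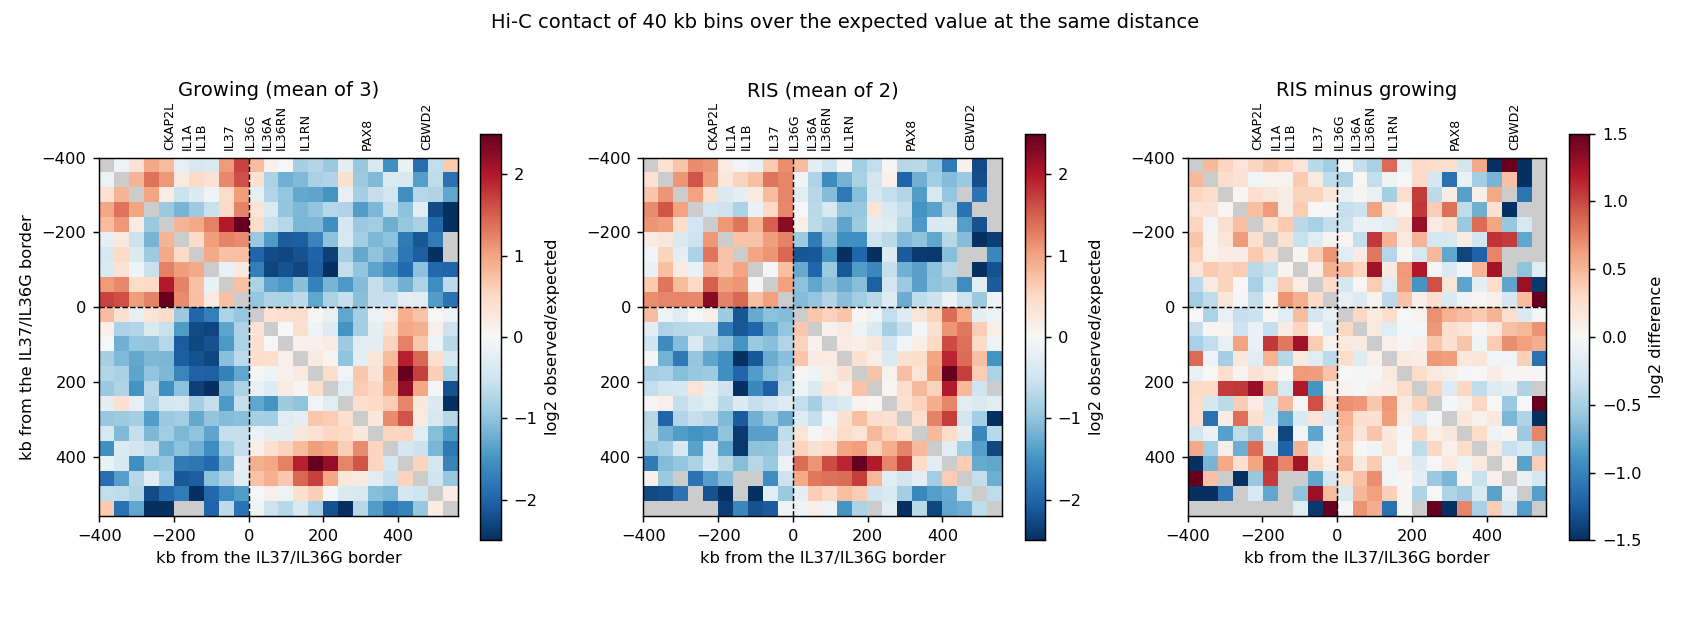
Mean Hi-C log2 observed/expected contact of 40 kb bins in growing cells, in RIS cells and the difference (RIS minus growing), with both axes in kb from the IL37/IL36G border (dashed lines) and grey where no value exists. Every pair of member bins across the border is below expectation in both conditions, at −0.79 or lower in growing. The log2 is taken here after averaging the libraries, so values differ slightly from the condition means in the text.

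RIS values lay above all growing values in 8 of the 28 pairs and below them in 2, against 14.7% and 15.9% of single bin pairs on chromosome 2, and the pairs share bins and are not independent. Averaged over all bin pairs, contact of the IL1 side (IL1A and IL1B) with the IL36 side (IL36G to IL1RN) was −1.80 ± 0.16 (SD, n = 3) in growing and −1.65 ± 0.34 (n = 2) in RIS, and contact of IL37 with the IL36 side was −1.16 ± 0.31 and −1.14 ± 0.31. Both pairs of groups overlapped (exact p = 0.6 and 0.9), so a weaker or stronger separation of the sides was not resolved. Among the 197 Hi-C and 143 cHi-C sets tested in this way no exact p could pass after Benjamini-Hochberg adjustment (smallest 0.334), and in cHi-C 2 against 2 libraries cannot give an exact p below 0.333, so the sets are described by whether the libraries overlap.

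The single bin pairs were then tested across the whole genome. On balanced values, limma with Benjamini-Hochberg adjustment at 5% called 0 of the 289 tested Hi-C pairs with an end in a member bin, against 0.00702% of all 1966522 pairs, while 22 were higher and 12 lower in RIS at an unadjusted p under 0.05, together a share like the background of 11.5%. The same fit on recovered contacts with precision weights (voom) called 9 higher and 2 lower, against backgrounds of 0.86% and 0.401%. In cHi-C, limma on balanced values called 0 of 2416 pairs and 0 of 330314 overall (150 higher and 208 lower at an unadjusted p under 0.05, background 16.6%), and voom called 92 higher and 68 lower, against 4.75% and 3.92%. Among pairs of 2 member bins, voom called 2 higher and 0 lower of 28 in Hi-C, and 18 higher and 7 lower of 153 in cHi-C. The median log2 difference of the pairs that touch the cluster was 0.13 in Hi-C, beside −0.001 over all pairs, and −0.03 in cHi-C, beside −0.002. In what follows a pair is said to have risen or fallen only where voom called it, with limma's adjusted p on balanced values given beside it.

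On the IL36 side, the mean contact among the 6 genes, agonists and antagonists together, was higher in RIS than in growing Hi-C libraries. Over the 10 bin pairs from IL36G to IL1RN, O/E was 0.18, 0.20 and 0.24 in growing, against 0.36 and 0.32 in RIS, with no overlap and a difference of 0.13 (exact p = 0.1). In cHi-C the same set stood at 0.42 and 0.41 in the growing libraries, against 0.44 and 0.43 in RIS, a difference of 0.02 whose sign turned when the expected value was taken from this captured region alone.

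The IL36-side pair that voom called in Hi-C was IL36G with the bin of IL36A and the IL36B end, neighbours 40 kb apart. O/E was 0.31, 0.46 and 0.32 in growing, against 0.74 and 0.61 in RIS, from 343, 421 and 379 contacts and 316 and 429 contacts. Every RIS library stood above every growing library, and voom gave a log2 rise of 0.36 ± 0.08 (SE; adjusted p = 0.00663), where limma on balanced values gave 0.26 ± 0.07 (adjusted p = 0.323). The voom call was lost without growing replicate 1, RIS replicate 1 or RIS replicate 2. When cHi-C was pooled to the same 40 kb bins, the pair stood at 0.22 in both growing libraries and at 0.38 and 0.36 in RIS.

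IL36G also stood higher in RIS with the genes beyond. With the bin of IL36B, IL36RN and IL1F10 it stood at 0.38, 0.47 and 0.42 in growing, against 0.56 and 0.58 in RIS, and with the first IL1RN bin 0.29, 0.43 and 0.56 against 0.67 and 0.73, neither with overlap and neither called by voom. Pooled cHi-C gave 0.58 and 0.74 as the means for IL36G with IL1RN. Not every pair of the side was higher in RIS: the IL36A bin with the first IL1RN bin stood at 0.41, 0.30 and 0.49 in growing, against 0.15 and 0.30 in RIS, lower in RIS without overlap, and the last IL1RN bin with IL36G was 0.03 in both conditions.

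At 10 kb, IL36G with all IL36B bins stood at 0.56 and 0.58 in growing cHi-C libraries, below the 0.75 of both RIS libraries. The pair of the IL36G bin chr2:113740001-113750000 with the IL36B bin chr2:113790001-113800000 rose by a log2 value of 0.43 by voom (adjusted p = 0.0173, limma on balanced values 0.21, adjusted p = 0.238), a call lost without growing replicate 2 or RIS replicate 2. Voom called 14 of the 66 cHi-C pairs of the IL36 side higher and 0 lower, against backgrounds of 4.75% and 3.92%, but the median difference was 0.19 on contacts and 0.01 on balanced values. The contacts recovered per bin moved with this: relative to the median captured bin, the 5 bins from chr2:113790001 to 113840000 (IL36B, IL36RN and IL1F10) held more contacts in RIS by log2 values of 0.28, 0.18, 0.21, 0.09 and 0.18. Balancing divides such coverage out and voom on recovered contacts does not, and the part of coverage in those 14 calls was not tested.

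Beyond the cluster, the IL36 side contacted a bin downstream several-fold above expectation in both conditions. Of the downstream bins, chr2:114120001-114160000, between PAX8 (a thyroid and kidney transcription factor gene) and CBWD2, had the highest growing O/E with the IL36 side and was singled out after its values were seen. The last IL1RN bin, 240 kb away, contacted it at 2.63, 2.46 and 2.67 in growing and 2.81 and 2.60 in RIS, which is 6.00-fold and 6.50-fold over expectation, from 253, 268 and 277 contacts and 195 and 224 contacts. The groups overlapped.

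In growing cells the mean levels of the other genes of the side fell in order of distance from that bin. In RIS the mean of the farthest, IL36G, stood above that of the nearer IL36A bin. That order held in RIS replicate 2 (1.60 against 0.92) but not in RIS replicate 1 (1.18 against 1.28). Growing replicate 3 had it too (1.12 against 0.90), so it is not read as a difference between conditions. The first IL1RN bin stood at 1.94 in growing and 1.91 in RIS (3.83-fold and 3.75-fold), the bin of IL36B, IL36RN and IL1F10 at 1.30, 1.15 and 1.29 against 1.51 and 1.75 (2.38-fold and 3.09-fold, no overlap), the bin of IL36A and the IL36B end at 0.96 against 1.10, and IL36G at 0.44, 1.05 and 1.12 against 1.18 and 1.60. Across the border, IL37 (−1.25 and −0.97), IL1A (−1.81 and −0.79) and IL1B (−1.86 and −1.08) lay below expectation in both conditions, on 2 to 10 contacts a library. Mean contact with this bin was thus above the distance-expected level for every bin of the IL36 side, agonist and antagonist genes alike. It was below that level for the genes across the border.

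**Figure D3:**
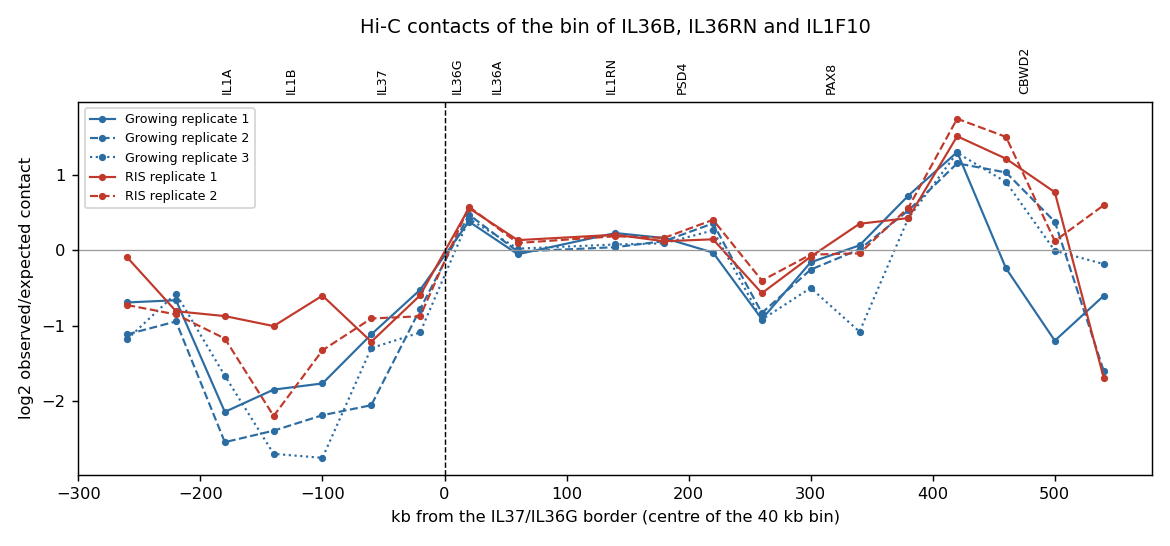
Hi-C log2 observed/expected contact of the 40 kb bin of IL36B, IL36RN and IL1F10 with the bins around it, per library, in kb from the IL37/IL36G border. The values of every library lie below 0 from 260 kb before the border up to it. They lie above 1 at the bin 420 kb after it, where both RIS libraries (1.51 and 1.75) stand over the growing ones (1.15 to 1.30).

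Over the whole downstream flank, contact of the IL36 side was −0.02, 0.00 and 0.00 in growing, against 0.13 and 0.21 in RIS, without overlap (difference 0.17, exact p = 0.1). The shift was seen for IL36A (0.22), IL36B (0.25), IL36RN with IL1F10 (0.26) and IL1RN (0.12), each without overlap, and for IL36G the libraries overlapped (0.29). These are not separate values, since IL36B shares its bins with IL36A and with IL36RN and IL1F10. The share of such sets without overlap elsewhere was not measured. The shift rests on the mean contact, which high pairs dominate: taken as the median over bin pairs it was −0.04 for the IL36 side and −0.39 for IL1RN.

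Within this flank the first IL1RN bin rose with both bins that hold PAX8. With chr2:114000001-114040000, the bin of the PAX8 start site, contacts numbered 50, 39 and 40 in growing and 49 and 60 in RIS, a log2 rise of 0.82 by voom (adjusted p = 0.0162) and 0.65 on balanced values (limma adjusted p = 0.332). With chr2:113960001-114000000, the bin of the PSD4 and PAX8 ends, contacts numbered 20, 27 and 14 against 25 and 31, a rise of 1.01 by voom (adjusted p = 0.0409) and 0.74 on balanced values (adjusted p = 0.357). Each voom call was lost without 4 of the 5 libraries in turn, RIS replicate 1 and RIS replicate 2 among them. The first IL1RN bin also held more contacts in RIS relative to the median chromosome 2 bin, by a log2 value of 0.13 without overlap. The part of coverage in these calls was not tested.

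Upstream, the IL36 side was in contact with a gene beyond the IL1 domain. MERTK, which encodes a receptor kinase for the clearance of apoptotic cells, lies 960 to 1240 kb from the IL36 side and nearer to IL1A and IL1B, and it was singled out after values were seen. The IL36 side contacted the MERTK bins at 0.61, 0.65 and 0.66 in growing and at 0.86 in both RIS libraries, 1.56-fold and 1.82-fold over expectation, from 195, 230 and 232 contacts and 160 and 209 contacts. RIS lay above growing without overlap (difference 0.22, exact p = 0.1), and the difference was 0.20 to 0.29 under every alternative tried. How often such sets differ without overlap elsewhere was not measured.

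The genes before the border did not share that contact. IL1A and IL1B together contacted MERTK at −1.71 in growing and −1.30 in RIS, 0.31-fold and 0.41-fold of expectation on 25 to 31 contacts a library, and IL37 at −0.08, −0.82 and −0.82 against −1.39 and −1.45. For IL1A and IL1B together RIS also lay above growing without overlap (difference 0.41, exact p = 0.1), and for IL37 it lay below. Higher contact with MERTK in RIS was thus not particular to the IL36 side. Within the IL36 side, IL36G (0.87 and 1.06), the IL36A bin (0.85 and 1.18) and the IL36RN bin (0.86 and 0.76) were about level in growing, and the last IL1RN bin stood at −0.20 and 0.33. In cHi-C the mean levels in growing and RIS were 0.85 and 0.80 for IL36G and 0.66 and 0.93 for IL36A, while IL37 stood at −0.81 and −1.01 in growing and −0.99 and −1.01 in RIS, but the growing and RIS libraries overlapped for each of these genes, so a difference between conditions was not resolved there.

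IL37, the last gene before the border, was in contact in growing cells with the far end of its own domain, and less so in RIS. That end is the 40 kb bin chr2:113480001-113520000, with the NT5DC4 body and the part of CKAP2L outside the IL1A bin. O/E there was 2.06, 2.01 and 1.85 in growing, against 1.41 and 1.57 in RIS Hi-C libraries, from 349, 354 and 309 contacts and 152 and 215 contacts. All growing libraries stood above both RIS libraries, the contact fell by 0.48 ± 0.11 on the log2 scale by voom (adjusted p = 0.00684), and limma on balanced values gave −0.55 ± 0.10 (adjusted p = 0.283). The voom call was lost without growing replicate 1, RIS replicate 1 or RIS replicate 2.

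The cHi-C libraries gave the same contact with far more depth. Pooled to 40 kb, both growing libraries (1.34 and 1.30) stood above both RIS libraries (0.75 each). At 10 kb, the CKAP2L bin chr2:113500001-113510000, which holds the plus-strand CTCF match, contacted the IL37 bin chr2:113670001-113680000 with 4850 and 3868 contacts in growing and 1854 and 1276 in RIS. That pair fell by 0.56 ± 0.07 on the log2 scale by voom (adjusted p = 0.000252), a call kept without each of the 4 libraries in turn, while limma on balanced values gave −0.65 ± 0.07 (adjusted p = 0.159). Of the 8 cHi-C pairs between IL37 and CKAP2L bins, voom called 6 lower and 0 higher, against backgrounds of 3.92% and 4.75%.

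Lower values in RIS ran along the stretch from the IL1B start-site bin to the border rather than at IL37 alone. The profile of the same CKAP2L bin reached its growing maximum of 2.63 at chr2:113700001-113710000, next to the bin of the minus-strand match 20.5 kb before the border (2.61). In RIS those bins stood at 2.13 and 1.96, and the maximum, 2.17, was in chr2:113710001-113720000, the last bin before the border. The bin of the match 77.3 kb before the border stood at 2.17 in growing and 1.71 in RIS. On the near side the order was turned, with the IL1B bin chr2:113580001-113590000 at 0.50 and 0.79 in growing and 1.23 and 1.34 in RIS. Every bin measured from chr2:113550001 to 113590000 was higher in RIS without overlap, and every bin from chr2:113590001 to 113730000 was lower without overlap, where 24.6% and 26.2% of all cHi-C pairs were higher or lower without overlap. This CKAP2L bin was chosen for its match after values were seen.

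**Figure D4:**
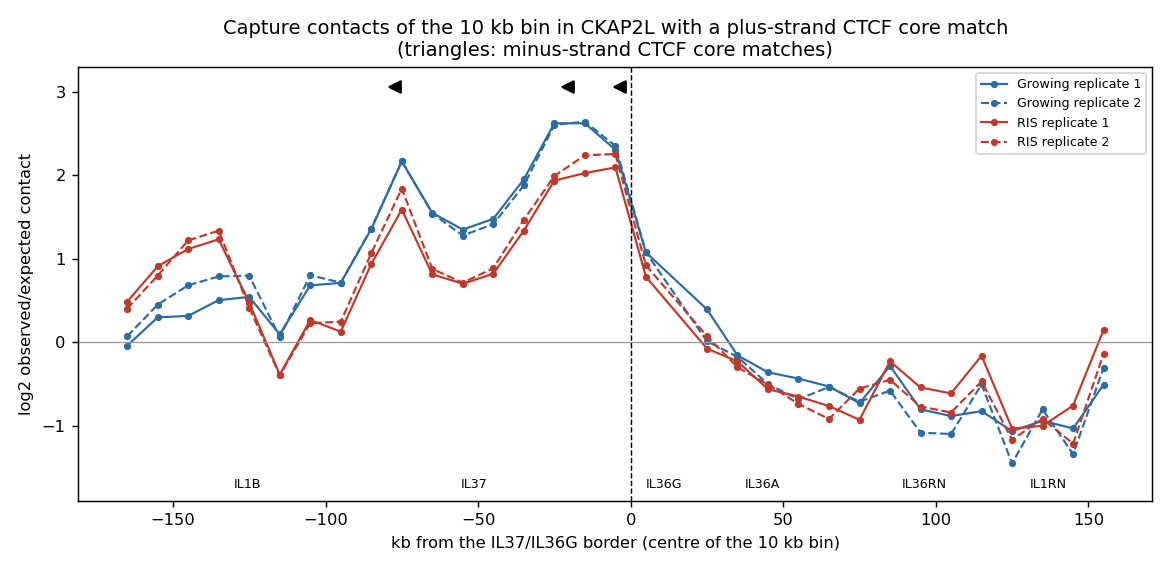
cHi-C log2 observed/expected contact of the 10 kb CKAP2L bin that holds a plus-strand CTCF core match, per library, in kb from the IL37/IL36G border, with triangles at minus-strand matches. The growing libraries peak at 2.63 near the border, RIS libraries run 0.15 to 0.70 lower from the second IL1B bin to the border and 0.43 to 0.67 higher over the 40 kb before it.

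Some contacts of IL37 with nearer bins went the other way. With the next 40 kb bin, chr2:113680001-113720000, contacts numbered 425, 545 and 478 in growing and 432 and 547 in RIS, a log2 rise of 0.41 by voom (adjusted p = 0.000236) that was lost only without RIS replicate 1, and 0.22 on balanced values (limma adjusted p = 0.372). In cHi-C the IL37 bin chr2:113670001-113680000 rose with chr2:113650001-113660000 by 0.55 (voom adjusted p = 0.000465, kept without each library in turn; limma on balanced values 0.36, adjusted p = 0.159).

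IL37 with the IL1 genes gave values that depended on the gene. With IL1A, Hi-C O/E was 1.16, 1.29 and 1.25 in growing, against 0.99 and 1.11 in RIS, and cHi-C O/E was 0.39 and 0.35 against −0.01 in both RIS libraries, lower in RIS in both assays. With IL1B, Hi-C was 0.67, 0.87 and 0.67 against 1.17 and 1.04, higher in RIS without overlap, with no call by voom (adjusted p = 0.132) or by limma on balanced values (adjusted p = 0.335). The cHi-C value of that pair was −0.25 in growing and −0.36 in RIS over the 10 kb bins of the gene bodies, and 0.18 and 0.32 when pooled to 40 kb, so its direction depends on the bins. IL1A with IL1B stood at 0.51, 0.49 and 0.47 in growing and 0.80 and 0.64 in RIS Hi-C libraries, higher in RIS without overlap. In cHi-C the means in growing and RIS were 0.00 and −0.09 over the 10 kb bins of the gene bodies, and 0.02 and 0.11 when pooled to 40 kb (without overlap), so this direction depends on the bins too.

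Several 10 kb pairs of IL1A with IL37 and IL1B fell in RIS. Voom called 3 of the 4 cHi-C pairs of IL1A with IL37 lower, 2 of the 4 of IL1A with IL1B lower, and 0 of the 4 of IL1B with IL37, none was called higher, and limma on balanced values called 0, where the voom backgrounds were 3.92% lower and 4.75% higher. Calls over all 145 tested cHi-C pairs of the IL1A start-site bin ran mostly the other way, with 11 higher and 5 lower. Those of the IL1B start-site bin, chr2:113590001-113600000, numbered 5 higher and 25 lower of 144. The median log2 difference over its pairs was −0.55 on contacts and −0.27 on balanced values. The first IL1A bin with the IL37 bin chr2:113660001-113670000 held 987 and 799 contacts in growing and 388 and 270 in RIS, a log2 difference of −0.50 by voom (adjusted p = 0.0067; limma on balanced values −0.49, adjusted p = 0.184), a call lost without growing replicate 1 or RIS replicate 1. The same IL1A bin with the IL1B bin chr2:113590001-113600000 held 3130 and 2721 contacts against 1248 and 808 (−0.60 by voom, adjusted p = 0.000268; limma on balanced values −0.29, adjusted p = 0.195), and the second IL1A bin with it gave −0.48 by voom (adjusted p = 0.00111). Both calls with IL1B were kept without each of the 4 libraries in turn, and the direction is opposite to that of the 40 kb Hi-C pair. Their sizes were near the median over all pairs of the IL1B start-site bin, so the fall was not particular to IL1A. The IL1B bins fell with each other too (−0.63 by voom, adjusted p = 9.11e-05; limma on balanced values −0.37, adjusted p = 0.162). The IL1B start-site bin also held fewer contacts in RIS relative to the median captured bin, by a log2 value of −0.15, and the part of coverage in these calls was not tested.

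Toward the upstream flank, cHi-C gave IL37 −0.15 and −0.21 in growing and −0.42 and −0.49 in RIS. RIS lay below growing in 94 of the 176 bin pairs of this set and above in 14, where the backgrounds for balanced values were 30.9% and 19.9%, and voom called 7 lower and 0 higher, a share like its background of 3.92% for lower pairs. CHCHD5, a gene for a mitochondrial protein, was among these partners, at 1.16, 0.97 and 1.05 in growing and 0.72 and 0.60 in RIS Hi-C and at 0.69 and 0.66 against 0.30 and 0.14 in cHi-C. Other bins of this flank fell more in cHi-C, for example from 1.06 and 0.98 in growing to 0.38 and 0.29 in RIS. Over the flank as a whole Hi-C did not resolve a difference (0.13 in growing and 0.09 in RIS, with overlap).

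Across the border, the bin of IL36B, IL36RN and IL1F10 held the only Hi-C contacts with the IL1 domain that voom called among pairs with an end in a member bin. With IL1A the libraries held 13, 11 and 19 contacts in growing and 22 and 22 in RIS, O/E −2.15, −2.55 and −1.67 against −0.87 and −1.17. The groups did not overlap, voom gave a log2 rise of 1.13 ± 0.31 (adjusted p = 0.0419) that was lost in 4 of 5 fits with 1 library left out, and limma on balanced values gave 1.11 ± 0.34 (adjusted p = 0.347). With chr2:113600001-113640000, a bin between IL1B and IL37, contacts numbered 21, 17 and 11 against 33 and 25, a rise of 1.33 in both fits (voom adjusted p = 0.00659, limma on balanced values 0.326), lost without growing replicate 3 or RIS replicate 1.

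In cHi-C, voom called 3 pairs higher and 1 lower of the 72 pairs of member bins on opposite sides of the border, against backgrounds of 4.75% and 3.92%. Neither share was above its background, so such calls were no more common across the border than over all cHi-C pairs. The lower pair was the IL37 bin chr2:113670001-113680000 with IL36G, the neighbours across the border, at 1003 and 773 contacts in growing and 437 and 275 in RIS (−0.38 by voom, adjusted p = 0.0298; limma on balanced values −0.40, adjusted p = 0.262). The higher pairs included IL1A with IL1F10 (0.81 by voom, adjusted p = 0.0289; limma on balanced values 0.70, adjusted p = 0.215) and IL37 with IL1F10 (0.79, adjusted p = 0.0344; limma 0.74, adjusted p = 0.212). The calls of IL37 with IL36G and IL1A with IL1F10 were lost without any 1 of the 4 libraries, and that of IL37 with IL1F10 without growing replicate 2, RIS replicate 1 or RIS replicate 2.

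The third higher pair was the IL1B bin chr2:113590001-113600000 with the bin of IL36B and IL36RN, chr2:113810001-113820000. It held 55 and 37 contacts in growing and 108 and 39 in RIS, and the rise of 1.56 by voom (adjusted p = 0.0027; limma on balanced values 1.74, adjusted p = 0.19) was not called without RIS replicate 1 (adjusted p = 0.115). Pooled to 40 kb, IL1A with that bin was −1.86 in growing and −1.41 in RIS, and IL1B −2.42 and −1.79, each without overlap. In Hi-C the contact of IL1A with it remained below the distance-expected level, at 0.23-fold in growing and 0.49-fold in RIS.

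Several pairs that ranked first by limma on balanced cHi-C values rested on almost no contacts. IL36A with chr2:112520001-112530000 held 3 and 3 contacts in growing and 0 and 0 in RIS, and IL36B and IL36RN with chr2:112570001-112580000 held 2 and 3 against 0 and 0, and no fold is given for them. None was called.

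The A/B score, which is the leading principal component of chromosome 2 contacts in 120 kb bins after division by distance, orders bins from A, the gene-rich and active compartment, to B. All bins of the cluster were positive in every library. The bin from IL36A to IL1RN stood lowest in growing, at 0.31, 0.30 and 0.15, and at 0.89 and 0.76 in RIS (0.25 ± 0.09 and 0.82 ± 0.09, SD, n = 3 and 2), without overlap (exact p = 0.1). A rise at least as large was found in 50 of 1973 bins of chromosome 2 (2.53%), whose median difference was −0.05, and RIS lay above growing without overlap in 31.4% of bins. The bin of IL37 and IL36G stood at 0.79, 0.85 and 0.92 in growing and 0.97 and 0.99 in RIS.

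The bin of CKAP2L, IL1A and IL1B went the opposite way, from 1.46, 1.51 and 1.51 to 1.15 in both RIS libraries. RIS lay below growing without overlap in 44.6% of bins, so a fall without overlap is common on the chromosome. The share of falls as large as this one was not measured. The spread of scores within the cluster was narrower in RIS. With 200 kb bins, whose edges cut the cluster elsewhere, the bin from IL36B to IL1RN was 0.57 in growing and 0.89 in RIS, and a rise of that size or more was met in 10.9% of bins. IL36A then lay in the bin of IL37 and IL36G, at 0.93 in growing and 1.09 in RIS. A rise of that smaller size or more was met in 23.9% of bins. The share of chromosome 2 bins above 0 was 52.5 to 52.7% in growing and 57.6 to 57.7% in RIS. Scores above 0 were thus more common in RIS over the whole chromosome, and whether the scale of the score itself moved was not tested.

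**Figure D5:**
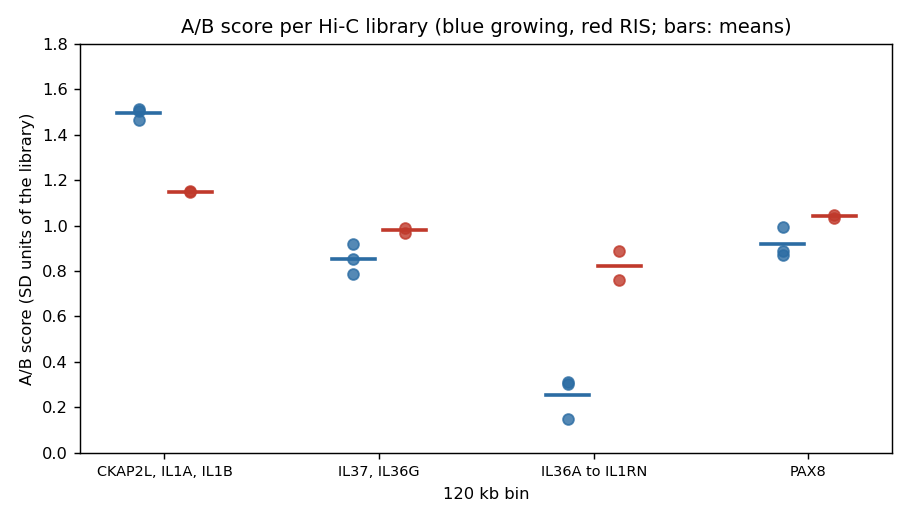
A/B score of 4 bins of 120 kb in each Hi-C library (points), in SD units of the library. The bin from IL36A to IL1RN lies between 0.15 and 0.31 in growing and at 0.76 and 0.89 in RIS, and the bin of CKAP2L, IL1A and IL1B lies higher in growing than in RIS.

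The genes for the receptors of these ligands form a second cluster on the same chromosome (IL1R2, IL1R1, IL1RL2, IL1RL1, IL18R1 and IL18RAP), 10480 to 11280 kb away. The 88 bin pairs between the clusters held 42 to 65 contacts a library in all, and O/E was 0.28, −0.10 and 0.04 in growing, against 0.19 and 0.15 in RIS. The groups overlapped (exact p = 0.6), neither condition stood apart from expectation by more than the spread of the growing libraries, and a difference of the whole was not detectable at this depth. The differences of single members had both signs but rest on very few contacts. All 55 bin pairs of the IL36 side held 31, 35 and 34 contacts in growing and 25 and 21 in RIS. The share of such sets without overlap elsewhere was not measured, so no shift of a single gene is read from these values. The IL36RN and IL1F10 bin stood at −0.52, −1.07 and −0.74 in growing, against 0.04 and 1.05 in RIS, and IL36G at 0.52, −0.03 and 0.10 against −0.28 and −1.39, each without overlap. IL36B, which shares a bin with IL36RN, was higher in RIS without overlap (difference 0.72), and the libraries overlapped for the other 5 members.

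Of the other genes of the pathway, limma on balanced values called 0 pairs with the start-site bin of any receptor, other ligand, inflammasome, signalling or downstream gene listed. Voom called 2 pairs higher for the decoy receptor IL1R2, 4 higher for PYCARD, the inflammasome adaptor, 1 higher each for the signalling genes MYD88 and IRAK1, and 1 lower each for the alarmin IL33, for NFKB1 and for the chemokine CXCL8, out of 32 to 56 tested pairs a gene, against backgrounds of 0.86% higher and 0.401% lower, so a count of 0 or 1 is near the background. It called 0 for the others, among them IL1R1, IL1RL2, IL18, CASP1 and IL6, and no pair was tested for SIGIRR. By the same count IL1A had 3 higher and 1 lower of 31, IL37 1 and 1 of 39, and IL1RN, by its start-site bin, 2 and 0 of 43.

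Each member bin was last compared with the others by the profile of its Hi-C contacts around the cluster, as a Pearson correlation of O/E over 41 to 57 shared bins, which share libraries and distances and serve as a description. The bins of the IL36 side were alike, at 0.60 to 0.95 in growing and 0.72 to 0.87 in RIS. IL1A and IL1B correlated at 0.67 and 0.65. The profile most like that of IL37 was that of IL1A (0.65 and 0.56), while IL37 and IL36G, neighbours across the border, correlated at 0.45 in growing and 0.14 in RIS. Over the 21 pairs of member bins measured in both assays at 40 kb, the difference between RIS and growing had the same sign in 15, and the growing levels correlated at 0.97.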

How the data were processed

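Hi-C (40 kb) and cHi-C (10 kb) files of IMR90 libraries were used. The authors deposited signal values, ICE-balanced contacts per bin pair, made with HiC-Pro on hg19 from HindIII-digested libraries after removal of artefacts and duplicates. The labels' processing notes name FastQC, HiC-Pro and hg19. Balancing equalises coverage of bins and hides depth, so whole contacts were recovered by dividing by 1 factor per bin. Of the small values, 99.98 to 100% were whole within 0.05. Over all values the share was 99.93 to 100%, with a tolerance that grew with the count, so large counts were checked less tightly. SD, SE and p-values measure the spread between libraries.

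Balanced values were scaled, log2-transformed with a pseudocount of 0.5, loess-normalised (span 0.3, 4 iterations) and tested by limma 3.58.1 with a trend in R 4.3.3, for pairs up to 2 Mb apart (or in 1 captured region) with a mean of at least 5, with Benjamini-Hochberg adjustment over all pairs. The paper's count test was not run. The deposited values are not counts, so limma on balanced values was the main test, with voom on recovered contacts beside it. Sets of pairs were compared by exact permutation over libraries. Borders are insulation minima (13 bins) of prominence 0.1 or more. Python 3.11.15, numpy 2.4.6, pandas 2.3.3, scipy 1.17.1 and matplotlib 3.10.9 were used. Gene coordinates came from GENCODE on GRCh37, and sequences from that genome. Checked on simulated data (20000 pairs, 200 of them changed, recovered log2 sizes near 1), limma with trend found 72 and voom 68 at Hi-C depth (5 and 3 false), and 155 and 160 at cHi-C depth (1 and 10 false), where libraries varied by counting alone. With a dispersion of 0.02 between libraries they found 39 and 31 at Hi-C depth (3 and 0 false), and 95 and 91 at cHi-C depth (4 and 2 false). The simulated contacts had no factors per bin, and the 2 fits gave like counts there. On the real data limma called 138 Hi-C and 0 cHi-C pairs and voom 24793 and 28638. The simulation does not cover that gap and cannot say which fit is nearer the truth.

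Groups came from the labels. The 9 genes, the neighbour and pathway lists and the rule for bin pairs (up to 10 an assay with the smallest adjusted p among pairs with an end in a bin of IL37 to IL1RN) were chosen with earlier results of these data known. MERTK, the downstream bin and the CKAP2L bin were chosen from that list or after values were seen. Alternatives were the test, the normalisation, the pseudocount, the minimum, the expected value, the bins of a gene, the window, the replicate block and leaving out each library. Those chosen after seeing the data were voom without each library, cHi-C pooled to 40 kb, and all alternatives for MERTK and the downstream bin.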

Additional observations from a re-analysis of the deposited data

How the results depend on the processing

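Most set values kept their direction under the alternatives tried, and these are the exceptions (log2 differences, RIS minus growing; the cause was not tested). In Hi-C, IL37 with the upstream flank (−0.04) turned to 0.0414 on recovered contacts, 0.0235 as a median over bin pairs and 0.0345 within libraries with few duplicates, all but growing replicate 3 and RIS replicate 2 (−0.133 to 0.0542 with 1 library left out). The IL36 side turned with the upstream flank (0.04) to −0.0297 within libraries with many duplicates (−0.0184 to 0.0988 with 1 left out), with the downstream flank (0.17) to −0.0402 as a median, and with the IL1 side (0.15) to −0.0201 within libraries with many duplicates (−0.0929 to 0.394). IL37 with the IL36 side (0.02) turned to −0.0474 by start-site bins only, −0.0447 in the replicate block and −0.0711 within libraries with many duplicates (−0.201 to 0.242). IL1RN with the downstream flank (0.12) turned to −0.392 as a median, and with the downstream bin (0.07) it ranged from −0.0117 to 0.127 with 1 library left out.

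In cHi-C, the IL36 side with itself (0.02) turned to −0.0234 with the expected value of the captured region, and with the upstream flank (−0.07) to 0.0475 on recovered contacts (−0.179 to 0.0422 with 1 left out). The IL1 side with the IL36 side (0.10) ranged from −0.0386 to 0.229, IL37 with the IL36 side (−0.11) turned to 0.119 by start-site bins (−0.224 to 0.00956), and, when pooled to 40 kb, IL1B with IL37 (−0.11) to 0.138 and IL1A with IL1B (−0.09) to 0.0908. The insulation difference at the border (−0.01) turned to 0.0533 with a window of 6 bins (−0.105 to 0.0827), and contact with the receptor cluster (0.10) to −0.0158 with the expected value of 23 chromosomes.

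Pairs that touch the cluster past the threshold numbered 0 by limma on balanced values and 11 by voom in Hi-C, where voom gave 0 to 9 with 1 library left out (5, 9 and 8 without growing replicates 1, 2 and 3, 0 without RIS replicate 1 and 2 without RIS replicate 2). In cHi-C they numbered 0, with 11 by limma without a trend and 160 by voom (97 and 135 without growing replicates 1 and 2, 105 and 121 without RIS replicates 1 and 2). Libraries of the same number did not deviate together (r = 0.01 in Hi-C and −0.01 in cHi-C over all pairs), so the numbers were not taken to pair them, and with a replicate block limma called 133 pairs of the whole Hi-C table against 138 without it, 0 of them in the cluster, and 0 in cHi-C. Depth limits the contacts across the border and beyond 400 kb, which rest on few contacts in a library.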

Other observations

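IL36G lay above expectation with several genes of the upstream flank in growing Hi-C libraries, among them TTL (0.53), FBLN7 (0.52) and POLR1B (0.64), while IL37 stood at −0.29 with TTL, at −0.39 with FBLN7 and also at 0.64 with POLR1B. With FBLN7, a gene for an extracellular matrix protein, IL36G stood at 0.47, 0.56 and 0.53 in growing, against 0.97 and 0.64 in RIS, and IL37 at −0.86, −0.07 and −0.25, against −1.30 and −1.08, so the RIS libraries lay on opposite sides of the growing ones for the 2 genes. With CHCHD5 in cHi-C, IL36G stood at 0.74 and 0.92 in growing, against 0.17 and 0.31 in RIS, and IL36A 0.21 and 0.03 against −0.79 and −0.56, each without overlap. In Hi-C IL36G with CHCHD5 was 0.72 in growing and 0.76 in RIS on average, with overlap. These partners were picked after their values were seen.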
